A study of Rattus norvegicus and synthetic construct with 4 samples.

Results

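The 277 elements described here were those of the filtered count table with at least 60 barcodes in the authors' pairing of barcodes to elements, out of 3378 elements in the count table (8.20%) and 4323 in the pairing table. The number of paired barcodes depends on how often an element was cloned and recovered, and no RNA value entered the choice. Each element is a stretch of 198 bp of the human genome that was picked because CAGE, which maps the capped 5′ ends of transcripts, had placed a transcription start there in pancreatic islets. Such start sites mark both promoters and active enhancers, since enhancers are themselves transcribed. In STARR-seq a candidate sequence sits within the transcribed part of a reporter plasmid, so a sequence that drives transcription is copied into its own RNA. A random barcode on each plasmid lets separate plasmids with the same element be counted apart.

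There were 2 kinds of library. The plasmid DNA input was sequenced as 1 library. RNA was sequenced from 3 replicates that the labels call biological, each made by electroporating 10 ug of the library into INS1 832/13 cells and harvesting after 24 h. INS1 832/13 is an insulin-secreting line from a rat insulinoma, so human sequences were read by rat transcription factors, and all replicates came from this 1 line and 1 plasmid pool. The spread between the RNA libraries is therefore that of separate electroporations, and the error of the single DNA library is not in any SD given here. No further treatment or genotype separated the RNA libraries.

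The barcodes themselves show what a single plasmid contributed, and those with the most plasmid DNA counts are given for the most and the least active of the 277 elements. Each is named by its element and its DNA count. The highest activity belonged to chromosome 1, from 201924541 to 201924738 (positions are in hg19 throughout):
Chromosome 1 element, 90 DNA counts: taaacgccattcgctt
Chromosome 1 element, 85 DNA counts: ggtatttgaaatattt
Chromosome 1 element, 65 DNA counts: gccacgagcgaggatt
Chromosome 1 element, 57 DNA counts: taaacgtaatttacgt
The lowest belonged to chromosome 5, from 140027104 to 140027301:
Chromosome 5 element, 81 DNA counts: aacggtagttacaatc
Chromosome 5 element, 74 DNA counts: gtatactatgtcgcga
Chromosome 5 element, 47 DNA counts: aaagatagttatggcg
Chromosome 5 element, 44 DNA counts: cctattcggttacctt

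The first plasmid of the chromosome 1 element gave 22, 54 and 20 RNA counts in the 3 replicates. The second gave 238, 83 and 152, the third 54, 97 and 62, and the fourth 22, 79 and 136. Plasmids carrying the same element thus differed in RNA between each other and between replicates. As a fold between replicates the third differed least, and each of the 4 stayed above 19 counts in every library. The plasmids of the chromosome 5 element gave 2, 0 and 0 counts, then 0, 0 and 1, then 0, 0 and 2, and last 0, 2 and 0, with no count above 2.

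Over the whole table there were 1079728 plasmid DNA counts, and 211117, 197554 and 218571 counts in RNA replicates 1, 2 and 3. The 277 elements took 32.0% of the DNA counts and 30.5, 29.9 and 30.5% of the RNA counts. Each had 367 to 3971 DNA counts (median 1169, against 197 over all elements) and at least 5 RNA counts in every library (median 116, against 25). They rested on 13 to 133 counted barcodes each, with a median of 36, where the median element of the table had 6. The deposited table holds no barcode with under 10 DNA counts or without an RNA count, so plasmids silent in all replicates were not analysed here. The reads carry no stated molecular identifier.

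Activity is given as normalized RNA over normalized DNA counts, summed over the barcodes of an element. It is relative to the centre that TMM normalization sets across the library, so 1 is this centre and not the level of an inactive control. Most of the well-measured elements lay close to that centre, and a minority rose well above it. The mean ratio over the 3 RNA libraries ran from 0.264 to 14.2, with a median of 0.823. The middle of the distribution was narrow: the 25th and 75th percentiles were 0.654 and 1.44, and the 10th and 90th were 0.508 and 2.94. Over all 3378 elements the 10th and 90th percentiles were 0.328 and 3.63, with a median of 0.979.

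The distribution leaned upward. Ratios of 2 or more were found for 48 elements (17.3%), of 4 or more for 15 (5.42%) and of 8 or more for 4 (1.44%). A ratio of 0.5 or less was found for 26 (9.39%) and 0.25 or less for 0. Of all elements, larger shares were in each of these classes: 22.7% at 2 or more, 8.76% at 4 or more and 2.10% at 8 or more. At 0.5 or less were 20.1% of all elements, and at 0.25 or less 6.63%. The extremes of the whole table, 0.0546 and 25.1, were both outside the range of the elements with many barcodes.

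The spread among the elements was larger than the error of measurement. The SD of the mean log2 ratio among the 277 elements was 1.06, while the root mean square of the SD between RNA libraries was 0.50. With the between-library part removed, the SD among elements was 1.02. This correction leaves out the error of the DNA library.

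Above the centre, 49 of the 277 elements (17.7%) passed edgeR's quasi-likelihood test, with p adjusted over all elements of the table by the Benjamini-Hochberg method and a threshold of 0.05. Of all 3378 elements 8.88% were called. All 49 were above the centre in 3 of 3 RNA libraries. Their mean ratios ran from 1.96 to 14.2 with a median of 3.13, and their log2 ratios from 0.97 to 3.83. They carried 22.0% of the DNA counts of the 277 elements and 54.6, 55.3 and 56.2% of the RNA counts. Elements with fewer barcodes needed a larger ratio to be called: the lowest called log2 ratio was 1.87 with 2 to 9 paired barcodes, 1.67 for 10 to 19, 1.26 for 20 to 39 and 1.19 for 40 to 59. The larger share of calls can therefore not be told apart from the better precision. Library totals in place of TMM lowered the median log2 ratio of all elements by 0.73. The edgeR test then called 26 of the 277 (9.39%) above the centre, and 169 of all 3378 elements. When barcode RNA counts under 5 were treated as 0, it called 18 of the 277 (6.50%), against 3.40% of all elements.

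The most active element, on chromosome 1 from 201924541 to 201924738, had 1623 DNA counts and 2775, 2321 and 2954 RNA counts over 51 barcodes. Its ratios in the 3 libraries were 14.6, 12.8 and 15.2, which gave a log2 value of 3.83 ± 0.20 (SE; adjusted p 1.34e-27 in edgeR's test). The next, on chromosome 1 from 45241140 to 45241337, had 1556 DNA counts and 1995, 1784 and 2015 RNA counts over 50 barcodes. Its ratios of 10.98, 10.3 and 10.8 did not overlap those of the first, and its log2 value was 3.42 ± 0.22 (adjusted p 8.65e-23 in edgeR's test). The third, on chromosome 11 from 118938423 to 118938620, had 1007 DNA counts and 1107, 1062 and 1083 RNA counts over 36 barcodes. It was at 9.42, 9.45 and 8.96 times the centre, below both others in every library and among the 3 most repeatable of the 277, with a log2 ratio of 3.21 ± 0.26 and an adjusted p of 2.53e-17 in edgeR's test.

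Ranks 4 to 7 overlapped between libraries. On chromosome 5, the element from 132202266 to 132202463 stood at 7.52, 7.93 and 8.55 times the centre over 45 barcodes. The one on chromosome 7 from 89975909 to 89976106 was at 6.46, 7.26 and 9.02 times, also over 45 barcodes, so it stood above the chromosome 5 element in replicate 3 alone. The one on chromosome 6 from 33168568 to 33168765 was at 7.81, 7.44 and 7.26 times over 46 barcodes. Ratios of the chromosome 2 element from 75873837 to 75874034 were 7.45, 7.08 and 6.19 over 43 barcodes, below the chromosome 5 and chromosome 6 elements in every library. Otherwise the order among these 4 changed between libraries.

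The remaining members of the 10 highest lay on chromosomes 11, 9 and 17. Ratios of the element from 65337870 to 65338067 on chromosome 11 were 6.46, 6.38 and 6.95. Those of the element from 33264940 to 33265137 on chromosome 9 were 5.42, 6.01 and 5.39, lower in every library. The element from 60501192 to 60501389 on chromosome 17 was at 4.36, 4.97 and 5.91 times the centre and exceeded the chromosome 9 element in replicate 3. The highest adjusted p of these 10 was 5.85e-12 in edgeR's test.

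A further 31 elements were above the centre in all 3 RNA libraries without being called, at mean ratios of 1.14 to 1.94. The strongest of them had a ratio of 1.94, just under the weakest called element at 1.96. The elements that moved to both sides of the centre between libraries numbered 79 (28.5%, against 44.8% of all elements), with mean ratios of 0.549 to 1.44.

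Below the centre, 118 of the 277 elements (42.6%) had a ratio under 1 in every RNA library, against 29.4% of all elements. In 3 of 3 libraries above 1 were 80 (28.9%, against 25.8% of all). The 118 low elements had a median ratio of 0.630 and none was under 0.264. A ratio under the centre is a low rank in this library and does not by itself show repression. No element was called below the centre by edgeR's quasi-likelihood test after adjustment (0 of 277, and 0% of all elements). At an unadjusted p under 0.05, 14 of the 277 (5.05%) were below, against 0.77% of all elements, and these 14 were among 26 such elements in the table. Fewer of the 277 lay on both sides of the centre (28.5%, against 44.8% of all). Elements with 2 to 9 paired barcodes had a median log2 ratio of 0.32, against -0.28 here. The larger shares below the centre can therefore not be told apart from the better precision or from the absence of barcodes without an RNA count.

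Whether low elements were called depended on the method and the centre. DESeq2 called 0 of the 277 below, with an adjusted p for every one of them. Limma-voom called 25 (9.03%, against 4.03% of all elements), including all 14 just named, and each of the 25 was below the centre in 3 of 3 libraries. Their ratios ran from 0.264 to 0.644. With library totals in place of TMM, edgeR called 48 of the 277 below, and 50 of all elements (1.48%). With RNA counts of 1 to 4 set to 0 it called 7, and 7 of all elements (0.207%). Without RNA replicate 1 it called 3, and 3 of all elements (0.0888%). They were at chromosome 5 from 140027104, chromosome 6 from 52860601 and chromosome 9 from 86535610. Without replicate 2 or 3 edgeR called 0, also over all elements.

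The lowest element, on chromosome 5 from 140027104 to 140027301, had 899 DNA counts and 42, 18 and 23 RNA counts over 32 barcodes. Its ratios were 0.400, 0.179 and 0.213, with a log2 value of -1.92 ± 0.76 (SE; adjusted p 0.133 in edgeR's test). A single barcode gave 28.9% of its RNA counts over the 3 libraries. Closest to the threshold was the chromosome 14 element from 50053454 to 50053651, with 1277 DNA counts and 54, 43 and 61 RNA counts over 39 barcodes. Its ratios of 0.362, 0.302 and 0.398 were steadier than those of the chromosome 5 element, and its log2 value of -1.50 ± 0.56 had an adjusted p of 0.0899 in edgeR's test.

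The other low elements also varied between libraries. On chromosome 12 from 21654437 to 21654634 the 3 ratios were 0.461, 0.117 and 0.299, from 33, 8 and 22 RNA counts. On chromosome 3, ratios for the element from 121902460 to 121902657 were 0.183, 0.523 and 0.194, and for the one from 113253008 to 113253205 they were 0.294, 0.189 and 0.428. Replicate 2 was thus the lowest library for some low elements and the highest for others. The chromosome 6 element from 52860601 to 52860798 was at 0.583, 0.172 and 0.231, and the chromosome 4 element from 74088689 to 74088886 at 0.641, 0.185 and 0.215, both highest in replicate 1.

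The last of the 10 lowest were on chromosomes 2, 7 and 3. The element from 218766586 to 218766783 on chromosome 2 was at 0.205, 0.494 and 0.369 times the centre. The element from 104653561 to 104653758 on chromosome 7 was at 0.481, 0.257 and 0.395 times. The element from 185270247 to 185270444 on chromosome 3 was at 0.448, 0.166 and 0.534 times. All 10 ranges overlap one another, so their order is not resolved.

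Among the 14 elements with an unadjusted p under 0.05, the 5 with the most counted barcodes had the 5 highest ratios. The chromosome 7 element from 129906599 to 129906796, with 52 counted barcodes, was at 0.562, 0.317 and 0.523 times the centre. The one on chromosome 19 from 21950285 to 21950482, with 51, was at 0.502, 0.599 and 0.626 times, and the one on chromosome 16 from 74700675 to 74700872, also with 51, at 0.522, 0.532 and 0.583 times. All 3 were below the centre in every library, and the chromosome 16 and chromosome 19 elements varied less between libraries than the chromosome 7 element. The chromosome 11 element from 65194863 to 65195060 was similar, at 0.520, 0.413 and 0.470 times over 41 barcodes, and the one on chromosome 9 from 86535610 to 86535807 wider, at 0.637, 0.490 and 0.270 times over 48. The remaining 3, which were not among the 10 lowest either, started at 65028618 on chromosome 10, 32555145 on chromosome 22 and 26124104 on chromosome 6, with mean ratios of 0.395, 0.400 and 0.415. Adjusted p over the 14 ran from 0.0899 to 0.343 in edgeR's test.

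The elements with the most paired barcodes covered both sides of the centre. The largest number, 250, belonged to the element on chromosome 10 from 116697887 to 116698084, of which 102 were counted. It had 355, 226 and 275 RNA counts and ratios of 0.939, 0.625 and 0.707. Next, the chromosome 19 element from 3762592 to 3762789, with 225 paired and 133 counted barcodes, had 3971 DNA counts and 1863, 1456 and 1777 RNA counts. Its ratios of 4.02, 3.29 and 3.73 were all above those of the chromosome 10 element, with a log2 value of 1.88 ± 0.20 (SE; adjusted p 4.05e-12 in edgeR's test). For the chromosome 15 element from 86126033 to 86126230, 218 paired barcodes gave ratios of 0.518, 0.633 and 0.709. For the chromosome 16 element from 3115276 to 3115473, 210 gave 1.68, 1.20 and 1.18. Neither was called, with adjusted p of 0.419 and 0.542 in edgeR's test. Across the 277 elements the number of paired barcodes and the log2 ratio were nearly unrelated (Pearson's r -0.03, Spearman's rho 0.01).

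Of the 27100 barcodes paired with these elements, 11226 were in the count table, a share of 41.4% (exact 95% interval 40.8 to 42.0%, for counting error only). Over the whole pairing table the share was 40.8%. It barely changed with the number of barcodes, at 42.4% for 60 to 79 paired barcodes, 40.8% for 80 to 119 and 41.3% for 120 or more. Counting all elements of the pairing table, those with 20 to 39 paired barcodes kept 41.3% and those with under 10 kept 36.1%. The median DNA count of a counted barcode was 26 both here and over the table.

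Single elements differed widely in this share, from 20% to 74.4%. Its SD among elements was 10.7 percentage points, against 5.24 from binomial sampling at a common share. The exact 95% interval lay wholly above the pooled share for 46 elements and wholly below it for 37. The share and the ratio are not independent, since every barcode of the count table has an RNA count. Pearson's r of the share with the log2 ratio was 0.80 and Spearman's rho 0.69 over the 277 elements, which also share the same libraries. Elements called above the centre kept a median of 58.8% of their barcodes (range 45.5 to 74.4%), and those below the centre in every library kept 35.2% (20 to 48.4%). How many of the missing barcodes had too few DNA counts and how many lacked RNA is not shown by the deposited data.

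The highest share, 74.4% (exact 95% interval 63.9 to 83.2%), was that of the element on chromosome 9 from 69065414 to 69065611, with 64 of 86 barcodes. It was called above the centre, with ratios of 3.38, 3.84 and 4.34. The chromosome 6 element from 33168568 and the chromosome 5 element from 132202266, both among the 10 most active, followed at 70.8% and 69.2%. The lowest shares were 20% (11.4 to 31.3%) on chromosome 19 from 15529698 to 15529895, with 14 of 70 barcodes, then 20.3% on chromosome 7 from 95225769 to 95225966 and 20.5% for the chromosome 3 element starting at 121902460. None of these 3 was called, and the chromosome 19 element had ratios of 0.654, 0.146 and 0.635. The fewest counted barcodes, 13, were on the chromosome 7 element, so many paired barcodes did not always give many counted ones.

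Because the count table holds no silent plasmids, activity was also taken as RNA counts per paired barcode. This measure counts missing barcodes as giving none and does not use the DNA counts. It was chosen after the data were examined. It ordered the elements much as the main ratio did (Pearson's r 0.97 and Spearman's rho 0.94 between the log2 values, which share the RNA counts). Relative to the median of all counted elements, the 277 had a median log2 value of -0.31. For RNA over DNA it was -0.28 relative to the TMM centre, where the median of all elements was -0.031. The spread among elements was wider, with an SD of 1.33 against 1.03. In every library 125 elements were below the centre of this measure, against 118 below the TMM centre.

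The replicates ranked the well-measured elements similarly. For the 277 log2 ratios, Pearson's r was 0.78 between replicates 1 and 2, 0.83 between 1 and 3 and 0.82 between 2 and 3, with a mean of 0.810 ± 0.0286 (SD of the 3 pairs), and the mean Spearman's rho was 0.72. These correlations share 1 DNA library and are given as descriptions. The mean r was 0.494 with 2 to 9 paired barcodes, 0.495 for 10 to 19, 0.569 for 20 to 39 and 0.642 for 40 to 59. Within the 277 it showed no further order, at 0.832, 0.772 and 0.826 for 60 to 79, 80 to 119 and 120 or more paired barcodes. Over the same 3 classes the SD of the log2 ratio among elements was 1.26, 0.92 and 0.74.

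The called elements were chosen by a test that requires high RNA in these same libraries, so the values for called and other elements are descriptions. The mean r was 0.90 over the 49 called elements, whose log2 ratios ran from 0.97 to 3.83, and 0.49 over the other 228, from -1.92 to 0.95. Of the 28 highest elements in each library, 19 were shared by all 3 libraries, and of the 28 lowest, 3 were. The median SD of the log2 ratio between libraries was 0.32 over the 277 elements, 0.16 for the called and 0.38 for the others. It was 1.22 with 2 to 9 paired barcodes. The highest of the 3 ratios was a median of 1.25 times the lowest for called elements and at most 2.15 times, whereas for the others the median was 1.63 times and the largest 13.4 times. Over the 277 elements it was under 1.5 times for 129 and above 4 times for 12.

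The most repeatable elements lay at different activities. The chromosome 17 element from 7487066 to 7487263 was at 2.65, 2.75 and 2.77 over 52 barcodes, and the chromosome 1 element from 115124131 to 115124328 at 1.36, 1.30 and 1.29 over 51. The first was called, with a log2 value of 1.44 ± 0.29 (SE; adjusted p 8.97e-05 in edgeR's test), and the second was not, with an adjusted p of 0.811. The least repeatable rested on few counted barcodes. The chromosome 7 element from 95225769 was at 1.30, 0.0974 and 0.724 times the centre from 70, 5 and 40 RNA counts over 13 barcodes, 1 of which gave 50.4% of its RNA. A chromosome 1 element from 28240971 to 28241168 was at 0.173, 0.737 and 1.19 times and the one on chromosome 16 from 23568569 to 23568766 at 1.74, 0.345 and 1.63 times, each over 17 barcodes.

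Separate sets of plasmids also agreed. The barcodes of each element were sorted alphabetically and taken alternately into 2 sets, and 1 set in a library was compared with the other set in another library, so that no plasmid, RNA count or DNA count was shared. Pearson's r over the 277 elements was 0.663 ± 0.0270 (SD over the 6 ordered pairs of libraries), against 0.458 with 40 to 59 paired barcodes, 0.404 with 20 to 39 and 0.325 with 2 to 9. Within the same library the 2 sets correlated with r 0.64, no higher than across libraries. Between barcodes of 1 element the log2 ratio had a median SD of 1.80 (range 1.20 to 2.22), which includes the counting noise of single barcodes. Leaving out the barcode with the most RNA counts from every element gave 58 calls above the centre, including all 49, and 0 below. Over all elements 8.44% were then called above. That barcode gave a median of 12.7% of the RNA counts of the 277 elements, but 41.0% over all elements. The median log2 ratio of the 277 rose from -0.28 to -0.037 with the moved centre, so the kept calls do not test dependence on single barcodes.

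The ratio of an element followed the share of its barcodes with high RNA counts more closely than the size of those counts. RNA counts of single barcodes fell into low and high ranges: in the 3 libraries 562, 662 and 728 of the 11226 counted barcodes had exactly 4 counts and 2, 3 and 7 had exactly 5. The high range, taken as 5 counts or more, included 22.5, 21.1 and 23.01% of these barcodes, which contributed 87.2, 84.4 and 85.2% of the RNA of the 277 elements. Their median count was 17 in each library. The share of high barcodes in an element, averaged over libraries, followed the log2 ratio closely (Pearson's r 0.96, Spearman's rho 0.95), while the median count of the high barcodes followed it less closely (0.64 and 0.54). Both measures are parts of the ratio, so these are descriptions of how it is made up.

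Called elements had a median of 44.2% high barcodes (range 26.9 to 93.5%), and elements under the centre in every library had 9.84% (1.04 to 17.7%). The 31 uncalled elements above it in every library had 23.5% (17.5 to 32.6%). The 79 on both sides of it had 14.3% (7.02 to 27.5%). Each of these 2 ranges overlapped those of the called and the low elements. The classes were formed from the ratio, so their order was set by that choice. The median count of a high barcode was 18.5 in the median called element and 15 in the median low element. In the most active element it was 49, in the second 39 and in the third 33. In the most active element, 98.04, 86.3 and 96.1% of the barcodes were high in replicates 1, 2 and 3.

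Whether a given plasmid was high differed between replicates. Of barcodes with at least 5 counts in replicate 1, 39.05% were also high in replicate 2 and 42.9% in replicate 3, against 15.9% and 17.2% of those that were not high in replicate 1. No count of 5 or more in any library was found for 6223 barcodes (55.4%), in 1 library for 3192, in 2 for 1145 and in 3 for 666 (5.93%). Part of this sharing is between barcodes of active and of weak elements and was not separated. A count in all 3 libraries was found for 32.1% of the barcodes and a count in 1 library for 38.0%.

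The counts differed somewhat with the G and C content of the barcode. Counted barcodes were 42.2% of those with 0 to 3 G or C among the 16 bases (543 of 1286), 42.4% with 4 to 7, 40.2% with 8 to 11, and 30.8% of those holding 12 or more (180 of 584, exact 95% interval 27.1 to 34.7%). RNA counts relative to those predicted from the barcode's DNA count and the ratio of its element were 1.15 ± 0.0425, 1.02 ± 0.0110, 0.930 ± 0.0198 and 0.879 ± 0.154 in these classes (SD, n = 3 RNA libraries). The first 3 classes did not overlap between libraries, and the last, in which replicate 1 was at 0.703 and replicate 2 at 0.984, overlapped the third. The median DNA count fell over the classes from 29 to 22.

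The barcodes were not uniform in base composition. Averaged over positions, T made up 31.8% and C 19.5%. G stood at position 2 in 14.5% of the barcodes and at position 5 in 17.3%, counted from the first base of the barcode as deposited, against 23.1 to 27.3% at the other positions. The same shares over the whole pairing table were 14.5% and 17.2%.

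Few barcodes were nearly identical to another on the same element. Of the 27100, 74 (0.273%) differed at 1 base from another barcode of their element, in 37 pairs on 34 elements, and both barcodes were counted in 4 pairs. The first of these pairs by position is shown as an example of near-identical barcodes. It is on the seventh most active element, on chromosome 2 from 75873837 to 75874034, with the differing base in capitals:
Chromosome 2 element, 22 DNA counts: ccagttttgttaacAc
Chromosome 2 element, 16 DNA counts: ccagttttgttaacTc
The first gave 42, 59 and 37 RNA counts and the second 27, 0 and 0.

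The 277 elements lay on all 22 autosomes, with 34 on chromosome 1 and 1 on chromosome 22. Another element of the pairing table was within 1000 bp of 74 of them (26.7%, against 29.3% of all elements), and 45 overlapped one (16.2%, against 17.9%). Overlapping neighbours share sequence and are not independent. Among 49 overlapping pairs with both elements counted, 41 shared 98 bp, and in 3 pairs both had at least 60 paired barcodes. The first of the 3, on chromosome 3, started at 149095486 and 149095586, with ratios of 0.715 and 0.455, and the second, on chromosome 7, started at 134576149 and 134576249, with ratios of 0.838 and 0.740. The third, on chromosome 6 at 26124104 and 26124204, had ratios of 0.415 and 1.49. No element of these 3 pairs was called.

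Some of the 49 overlapping pairs held a called element. For reference, 17.7% of the 277 elements and 8.88% of all elements were called above the centre. Whether the pairs differed from these shares was not tested, since some elements were in more than 1 pair. In 4 pairs the element with at least 60 paired barcodes was called, and in 1 of them, on chromosome 11 at 64889527 and 64889672, the neighbour was called too, at ratios of 3.32 and 5.11. In the others, starting at 75198800 on chromosome 1, 16035286 on chromosome 12 and 27107232 on chromosome 21, the ratios were 2.63, 2.37 and 4.59, against 0.894, 0.356 and 0.867 for neighbours with 5, 9 and 11 counted barcodes. In 1 further pair, on chromosome 2, the neighbour alone was called, with ratios of 1.41 from 113342093 and 4.47 from 113341949. Differences within these pairs were not tested here, and a neighbour with few barcodes needed a larger ratio to be called.

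At the threshold itself, the 2 elements with exactly 60 paired barcodes had mean ratios of 2.63 and 3.36, and both were called. The 9 elements with 61 ranged from 0.553 to 3.32, the 9 with 59 from 0.562 to 1.37 and the 12 with 58 from 0.491 to 2.97. With at least 40 paired barcodes, 79 of 555 elements were called above the centre, and with at least 80, 23 of 170, against 8.88% of all elements.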

How the data were processed

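The counts were deposited by the authors as whole numbers for each barcode, not normalized, in a plasmid DNA column and a column per RNA replicate. Another deposited table lists the element of each barcode. The sources used here do not say how reads were counted and filtered. The minimum of 10 DNA counts and the RNA count of each barcode were read from the deposited values. The submitters' processing notes name hg19 as the build. Starts in the element names count from 0 and are printed counted from 1.

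Groups came from the sample titles. Counts were summed per element and fitted over all 3378 elements, RNA against DNA, in edgeR 4.0.16 under R 4.3.3, with TMM normalization. A quasi-likelihood test was used, with Benjamini-Hochberg adjustment at 0.05. TMM factors were 1.47 for DNA and 0.876, 0.895 and 0.870 for RNA. SEs are the absolute log2 ratio over the square root of F. DESeq2 1.42.0 and limma 3.58.1 (voom) were alternatives. Correlations used log2 ratios with a pseudocount of 0.5, in Python 3.11.15. Intervals are exact (Clopper-Pearson). The element test was tested on simulated data with changed elements among those described. The simulated folds were recovered on average and no unchanged element was called, but few raised and no lowered elements were. The spread of that simulation was chosen after larger ones (common and element-wise dispersions) gave no calls at all. The absence of calls below the centre therefore does not show that decreases are absent.

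The members, lists and alternatives were chosen with earlier results of these data known. Elements were named by a fixed rule: the 10 highest and 10 lowest log2 ratios, the 4 with the most paired barcodes, the 3 highest and 3 lowest shares counted, the 3 largest and 3 smallest SDs between libraries, and those below the centre at an unadjusted p under 0.05. Overlapping pairs and the barcodes printed were chosen outside this rule. Element sequences and gene annotation were not used here.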

Additional observations from a re-analysis of the deposited data

How the results depend on the processing

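The calls changed with the placement of the centre, the low RNA counts and the testing method. With library totals in place of TMM, edgeR called 169 of all 3378 elements above and 50 below. Of the 277 it then called 26 above and 48 below, their median log2 ratio was -1.02 and 201 lay below in every library. With RNA counts of 1 to 4 set to 0 these were 18, 7, -1.15 and 198, the SD among elements was 1.28 and the mean r between libraries 0.524. Of all elements 3.40% were then called above and 0.207% below. DESeq2 size factors gave a median of -0.20, and testing only elements with at least 5 barcodes gave -0.31. Without the barcode with the most RNA counts the median was -0.037, the SD 1.10 and 76 were below in every library. Barcodes with at least 20 DNA counts gave an SD of 1.11, a mean r of 0.781 and a share counted of 27.9%, lower by construction. DESeq2 called 58 above (20.9%, against 12.4% of all elements, 1572 of which had no adjusted p). Limma-voom called 69 above (24.9%, against 15.1% of all) and 25 below (9.03%, against 4.03%). Medians over barcodes gave an SD of 1.08. At least 40 paired barcodes gave 79 calls above, 221 below in every library and a mean r of 0.720. At least 80 gave 23, 72 and an SD of 0.86. RNA per paired barcode gave an SD of 1.33 and a mean r of 0.874. Apart from construction, the causes were not tested.

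Without RNA replicate 1, 2 or 3, calls above numbered 49, 39 and 41 (17.7, 14.1 and 14.8%). Of all elements 8.56, 5.71 and 6.45% were then called above. Calls below numbered 0 to 3 (0 to 0.0888% of all elements). Leaving out 1 replicate gave medians from -0.27 to -0.23, SDs from 1.05 to 1.08 and a mean r from 0.778 to 0.831. In every remaining library 130 to 143 elements were below. Of 39 named elements, 4 that were not called changed sign. With library totals, chromosome 16 from 3115276 was at -0.30, chromosome 16 from 23568569 at -0.43 and chromosome 1 from 115124131 at -0.34. With low counts set to 0 they were at -0.30, -0.38 and -0.30. Chromosome 16 from 23568569 was at -0.045 without RNA replicate 1 and went up to 0.75 without another replicate, and chromosome 7 from 95225769 was at 0.019 without RNA replicate 2 and went down to -1.31 without another. The 12 other called elements among the 39 stayed called under all these settings, and chromosome 17 from 7487066 was not called with library totals or low counts set to 0. For the most active element, adjusted p in edgeR's test was 4.14e-84 without RNA replicate 1 and 1.66e-04 without replicate 2. Its log2 ratios were 3.78 and 3.90, so its adjusted p varied far more than its ratio. No paired analysis was possible because the DNA group has 1 library. The median RNA depth was 116 counts per element and library, and its part in the lack of calls below the centre was not tested.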
